A study of Gallus gallus with 21 samples.

Results

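The 200 mRNAs described here were higher in every adult hen than in every embryo. They were chosen from the mRNA table of the chicken cerebrum by a fixed rule and make up 200 of its 14558 mRNAs. The rule used mRNAs listed on chromosomes 1 to 15 or 17 to 20, which were 11001 mRNAs. It kept an mRNA where each of the 7 libraries of Y1, Y3 and Y5 had a higher value than each of the 8 libraries of E12, E16 and E20. It also required that no stage stood far apart, so the highest of 7 stage means had to lie less than 0.5 above the second highest and the lowest less than 0.5 below the second lowest. Of the mRNAs that passed, the 200 with the largest adult minus embryonic difference of the mean were taken. All values are log2(FPKM+1) unless FPKM is named, where FPKM is a fragment count corrected for transcript length and for the total of mapped reads in a library. The difference between adult hens and embryos therefore chose these mRNAs and is given as a description, with no test.

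In the bird cerebrum most neurons are born in the embryo. Growth of axons and dendrites, formation of synapses, wrapping of axons in myelin by oligodendrocytes, and maturation of astrocytes and microglia go on around and after hatching. An mRNA that is low in the embryo and high in the adult can thus belong to any of several cell types of the mature brain. The table names each mRNA by an Ensembl identifier and pairs it with no symbol, and 0 of the identifiers matched the gene table used here. No role is therefore given for any of them, and marker lists of cell types could not be read. In RNA of whole tissue, more cells of a type and more RNA per cell cannot be told apart.

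Each library came from the cerebrum of 1 female Tibetan chicken, and no other treatment or genotype entered the design. The embryonic libraries were 3 at E12, 3 at E16 and 2 at E20, which are embryonic days 12, 16 and 20. There were 3 libraries at D100, an age of 100 days in the growth period, and for adult hens there were 3 at Y1, 2 at Y3 and 2 at Y5, at 1, 3 and 5 years of age. At Y3 and Y5 the replicate numbers could not be used, and the hens are called replicate a and b. The embryos came from incubated eggs, the birds of D100 from a farm in Ya'an and the hens from Lhasa, so that age and place cannot be told apart between these periods. These are 18 of the 21 libraries and 7 of the 8 stages, and D300 was not analysed here.

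The median over all 14558 mRNAs lay between 3.40 and 3.57 in 17 of the libraries and at 3.16 in D100 replicate 3. In that library mitochondrial mRNAs held 28.8% of the summed FPKM, against 0.43% to 5.62% in the others. A single mRNA, ENSGALG00000017926, held 18.6% to 40.6% of the summed FPKM of a library. The deposited values hold no read counts, so no counting error was computed for a value. The spread between birds is the error given throughout. An SD over all hens or all embryos also holds the differences between their stages.

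The 200 mRNAs were low in embryos, intermediate at D100 and high in hens. Their median was 2.29 at E12, 2.42 at E16 and 2.73 at E20. It was 3.56 in the growing birds of D100, and then 4.39 at Y1, 4.38 at Y3 and 4.24 at Y5. The median of all mRNAs lay between 3.37 and 3.54 at the 7 stages. By library, the median of the 200 mRNAs was 2.31, 2.52 and 2.28 at E12, 2.52, 2.60 and 2.45 at E16, and 2.84 and 2.68 at E20. It was 3.24, 4.08 and 3.39 at D100, 4.44, 4.34 and 4.30 at Y1, 4.18 and 4.70 at Y3, and 4.25 and 4.21 at Y5. All 3 libraries of D100 thus lay between the embryos and the hens, and D100 replicate 2 lay near the lowest hen. The 200 mRNAs together held 0.34% to 0.58% of the summed FPKM in embryos, 0.72% to 1.18% at D100 and 1.36% to 2.29% in hens.

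**Figure D1:**
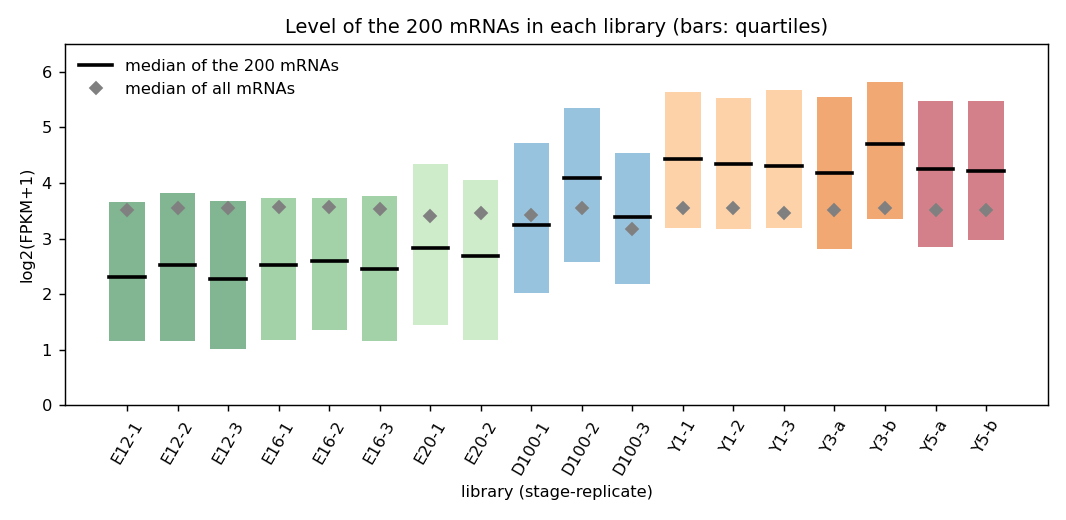
Level of the 200 mRNAs in each of 18 libraries, in log2(FPKM+1), with stages in order of age. Bars run between the quartiles of the 200 mRNAs, black lines are their medians and grey diamonds the medians of all mRNAs. The black lines lie between 2.28 and 2.84 in embryos, between 3.24 and 4.08 at D100 and between 4.18 and 4.70 in hens.

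Steps between adjacent stages divide this difference along life. The median step of the 200 mRNAs was 0.10 for E16 minus E12, 0.31 for E20 minus E16, 0.58 for D100 minus E20, 0.83 for Y1 minus D100, 0.09 for Y3 minus Y1 and -0.16 for Y5 minus Y3. Over all mRNAs the median step was -0.09 for D100 minus E20 and 0.14 for Y1 minus D100. With median-ratio scaling, chosen after the data were seen, these were -0.01 and 0.01 over all mRNAs, and over the 200 the same steps were 0.68 and 0.67. With FPKM rescaled to the sum without mitochondrial mRNAs they were 0.87 and 0.74 over the 200, and 0.16 and 0.06 over all mRNAs. The order of these steps by size thus depended on the scaling. As deposited, the step with the highest value was Y1 minus D100 in 93 of the mRNAs, D100 minus E20 in 70, E20 minus E16 in 32, Y3 minus Y1 in 4 and E16 minus E12 in 1. The highest stage mean was at Y3 in 92 mRNAs, at Y1 in 54, at Y5 in 39 and at D100 in 15. The lowest stage mean was at E12 in 96, at E16 in 57, at E20 in 41 and at D100 in 6.

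The adult minus embryonic difference had a median of 1.67 over the 200 mRNAs and lay between 1.24 and 4.66. It was at least 2 in 47 mRNAs, at least 3 in 7 and at least 4 in 3. In FPKM the mean of the hens was a median of 3.88 times that of the embryos, with a range from 2.23 to 60.5. The mean of the hens had a median of 19.7 FPKM (2.1 to 744) and that of the embryos a median of 5.17 FPKM (0.130 to 178). In 38 mRNAs the embryonic mean was below 1 FPKM while the adult mean was above it, so that these were weakly expressed in the embryo. Of the 200 mRNAs, 22 were listed at 0 in 1 or more embryonic libraries and 0 in every embryonic library. At D100, 7 were listed at 0 in a library, and in hens 0 were, as the rule requires.

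Across the 11001 mRNAs of these chromosomes, 700 (6.36%) had all hens above all embryos and 569 the reverse. The limit on the highest stage left 595, the limit on the lowest stage left 522, and 322 of these had a smaller difference than the 200 taken. The last mRNA taken, ENSGALG00000011164 on chromosome 2, had a difference of 1.24, and the first not taken, ENSGALG00000039682 on chromosome 1, also had 1.24 after rounding. At the limit of 0.5 on the highest stage the nearest mRNAs stood at 0.498 inside and 0.501 outside, and on the lowest stage at 0.499 inside and 0.506 outside. Of the mRNAs dropped by a limit although their difference was as large as that of the 200, 55 stood outside the limit on the highest stage and 56 outside that on the lowest. The lowest hen stood above the highest embryo by a median of 0.46, by at least 1 in 26 mRNAs and by less than 0.1 in 16.

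The widest gap of the 200 mRNAs, 3.09 between the lowest hen and the highest embryo, belonged to ENSGALG00000004594 on chromosome 13. It had values of 4.01, 4.13 and 4.11 at E12, 4.57, 4.35 and 3.89 at E16, and 4.76 and 4.39 at E20. At D100 the values were 7.59, 8.17 and 7.19, and the hens had 8.40, 8.51 and 9.22 at Y1, 8.22 and 9.29 at Y3, and 7.88 and 7.84 at Y5. The embryos differed little among themselves and all 3 birds of D100 stood far above them, at 0.80 of the way to the hens. The mean was 8.48 ± 0.58 in hens and 4.28 ± 0.29 in embryos (SD, n = 7 and 8), or 383 FPKM and 18.7 FPKM.

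The largest difference belonged to ENSGALG00000013575 on chromosome 2. It had 0.00, 0.46 and 0.00 at E12, 0.40, 0.47 and 0.98 at E16, and 2.17 and 1.17 at E20. The values were 6.57, 7.53 and 5.20 at D100, 6.01, 6.28 and 6.25 at Y1, 2.43 and 5.15 at Y3, and 6.05 and 5.40 at Y5. The mRNA was near 0 in the younger embryos, already at the adult level at D100, and low in a single hen, Y3 replicate a, which stood only 0.26 above the highest embryo. The mean was 5.37 ± 1.37 in hens and 0.71 ± 0.72 in embryos (SD, n = 7 and 8), or 51.5 FPKM and 0.851 FPKM. Its lower mean at Y3 than at Y1 (difference -2.39, SE 0.65) did not pass the test (adjusted p = 0.25 in limma). The mRNA most alike over the 18 libraries was ENSGALG00000042001, of rank 48 by difference, with a Pearson r of 0.98. The rule required a step between embryos and hens of all 200 mRNAs, and how much of this likeness comes from it was not measured.

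ENSGALG00000013775, also on chromosome 2 and second by difference, took a different course. Its values were 1.88, 2.40 and 1.63 at E12, 2.73, 2.62 and 1.62 at E16, and 4.78 and 4.41 at E20. They were 2.78, 5.21 and 4.84 at D100, 7.37, 7.17 and 6.98 at Y1, 7.04 and 7.89 at Y3, and 6.69 and 6.86 at Y5. Both birds of E20 stood above all younger embryos, the birds of D100 did not go clearly beyond E20, and the hens stood apart from all of them. The mean was 7.14 ± 0.40 in hens and 2.76 ± 1.21 in embryos (SD, n = 7 and 8), or 145 FPKM and 8.59 FPKM.

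**Figure D2:**
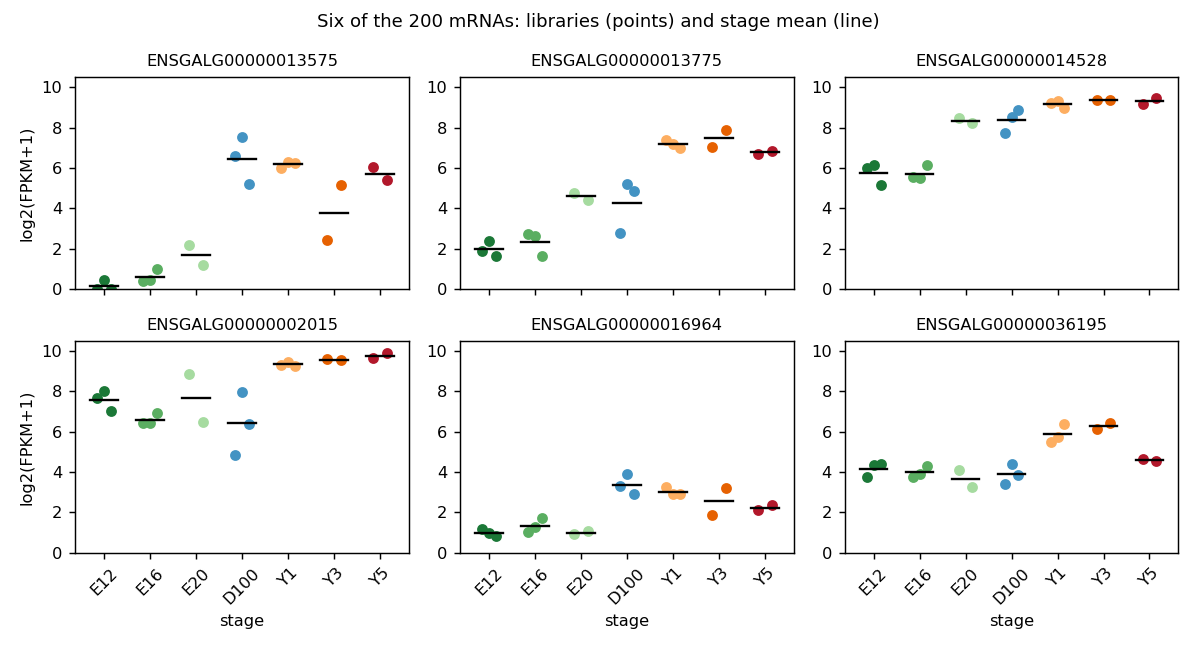
Values of 6 of the 200 mRNAs in log2(FPKM+1), with 1 panel for each mRNA and stages in order of age. Points are libraries and short lines are stage means. ENSGALG00000013575 had its step between E20 and D100, ENSGALG00000014528 between E16 and E20, and ENSGALG00000002015 between D100 and Y1.

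Within the embryonic period, adjacent stages were compared with limma, with the spread between birds estimated over all 18 libraries. An mRNA was called where the fold change was at least 2 or at most 0.5 on the log2(FPKM+1) scale and the Benjamini-Hochberg p over all 14558 mRNAs was at most 0.05. The rule did not use the contrast between embryonic stages, but it held every embryo below the hens and limited how low a single stage could lie. That limit held back large changes between E12 and E16 beforehand. Nothing is therefore read from the counts for E16 vs E12 beside their backgrounds. Of the 200 mRNAs, 0 were called for E16 vs E12 in either direction, beside a background of 1.05% of all mRNAs called higher and 1.43% called lower. At an unadjusted p of at most 0.05 and with no limit on the fold, limma gave 7 higher and 3 lower of the 200, beside 9.96% and 11.1% of all mRNAs.

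For E20 vs E16, 27 of the 200 mRNAs (13.5%) rose and 0 fell, beside a background of 2.9% of all mRNAs called higher and 5.32% called lower. The limit on the lowest stage also held back falls at E20. The rule used the E16 and E20 values and ranked by the adult minus embryonic difference, while the background had no such selection. Nothing is therefore read from the 0 or from 13.5% beside 2.9%. Among the 322 mRNAs that passed the rule with a smaller difference 1 rose, but with every E20 value held below every hen these had less room for such a rise. The median difference was 0.31 over the 200 mRNAs and -0.07 over all mRNAs. Of the 27 mRNAs, 13 were among the first 50 by adult minus embryonic difference, 8 among the next 50, 5 among the 50 after these and 1 among the last 50. The E20 libraries count in the embryonic mean that sets this rank, and a larger difference left more room for a rise at E20. Nothing is therefore read from these counts by rank. Without E20 replicate 1 only 6 of the 200 mRNAs were called, beside 1.31% of all mRNAs called higher in that fit. With the fit made on E16 and E20 alone 4 were called, beside 0.55%, and with a Bonferroni adjustment 2, beside 0.24%.

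ENSGALG00000014528 on chromosome 1 had the largest of these rises. Its values were 6.02, 6.14 and 5.14 at E12, 5.54, 5.49 and 6.14 at E16, and 8.47 and 8.23 at E20. They were 7.71, 8.51 and 8.89 at D100, 9.24, 9.29 and 8.99 at Y1, 9.36 and 9.39 at Y3, and 9.17 and 9.49 at Y5. The level was flat up to E16, was far higher at E20, and changed little between E20 and D100. E20 vs E16 gave a difference of 2.63 (SE 0.33, adjusted p = 0.0003 in limma), and both birds of E20 stood above all 3 of E16. The mean was 9.27 ± 0.16 in hens and 6.40 ± 1.26 in embryos (SD, n = 7 and 8), with most of the spread of the embryos between E16 and E20.

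ENSGALG00000036111 on chromosome 9 stood close to the adult level already at E20. Its values were 4.26, 4.13 and 3.93 at E12, 4.03, 3.94 and 5.04 at E16, and 6.27 and 6.37 at E20. They were 7.03, 6.77 and 6.82 at D100, 7.05, 6.71 and 6.49 at Y1, 7.12 and 7.31 at Y3, and 6.90 and 6.83 at Y5. The E20 birds lay just below the lowest hen and the D100 birds lay among the hens. E20 vs E16 gave a difference of 1.98 (SE 0.27, adjusted p = 0.000424 in limma). This mRNA and ENSGALG00000014528 were the 2 that also passed with the Bonferroni adjustment (Bonferroni-adjusted p = 0.0238 and 0.0117 in limma). The rise of ENSGALG00000013775 was 2.27 (SE 0.53, adjusted p = 0.0119 in limma).

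Both birds of E20 stood above all 6 birds of E12 and E16 in 74 of the 200 mRNAs (37%), beside 11.9% of all mRNAs on these chromosomes. Among the 322 that passed with a smaller difference it was 47 (14.6%). In 200 mRNAs chosen by the reversed rule, all embryos above all hens, both lay below all 6 in 71 (35.5%), beside 18.8%. The rule used these E20 values and ranked by the difference, so nothing is read from the 37%. E20 replicate 1 had the higher value of the pair in 21 of the 27 mRNAs that rose, and in 141 of the 200 (70.5%), against 47.4% of all mRNAs. In the 27 mRNAs D100 minus E20 lay between -0.47 and 1.22 with a median of 0.19 and was below 0 in 9. It was below 0 in 39 of the 200, and above 0 in 43.0% of all mRNAs. The 27 were called on the same E20 birds, whose high values lower this step, so nothing is read from it. The Y1 minus D100 difference of the 27 had a median of 0.73. In these 27 mRNAs the hens had a median of 68.7 FPKM, against 19.7 FPKM over the 200. A rise of at least 1 is harder to reach at low FPKM on this scale, and the rule held E20 below the hens. Nothing is therefore read from these 2 levels.

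**Figure D3:**
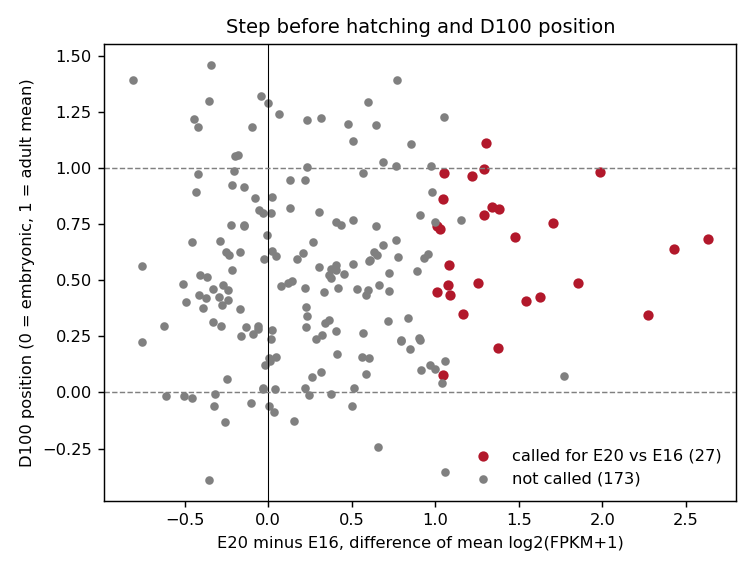
Difference E20 minus E16 in log2(FPKM+1) on the x axis against the D100 position on the y axis, where 0 is the embryonic mean and 1 the adult mean. Each point is 1 of the 200 mRNAs, and the 27 red points passed the test for E20 vs E16. The red points lie between 1.01 and 2.63 on the x axis and have a median D100 position of 0.685.

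D100 showed where the growing birds lay between embryos and hens. For each mRNA the D100 position was the D100 mean minus the embryonic mean, divided by the adult mean minus the embryonic mean, so that 0 is the embryonic and 1 the adult level. Both ends were used by the rule, so the position is a description with no test. It had a median of 0.51, quartiles of 0.26 and 0.77, and a range from -0.39 to 1.46. The D100 mean was at or below the embryonic mean in 16 mRNAs and at or above the adult mean in 25. Among the 322 mRNAs that passed but were not taken the median was 0.41. Among the 200 mRNAs chosen by the same rule turned round, with all embryos above all hens, the median position was 0.80 as deposited. Over all mRNAs the median step was -0.09 for D100 minus E20 and 0.14 for Y1 minus D100. A lower level of a D100 library lowers the position of the first set and raises that of the reversed set. Nothing is therefore read from the contrast between these 2 medians.

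**Figure D4:**
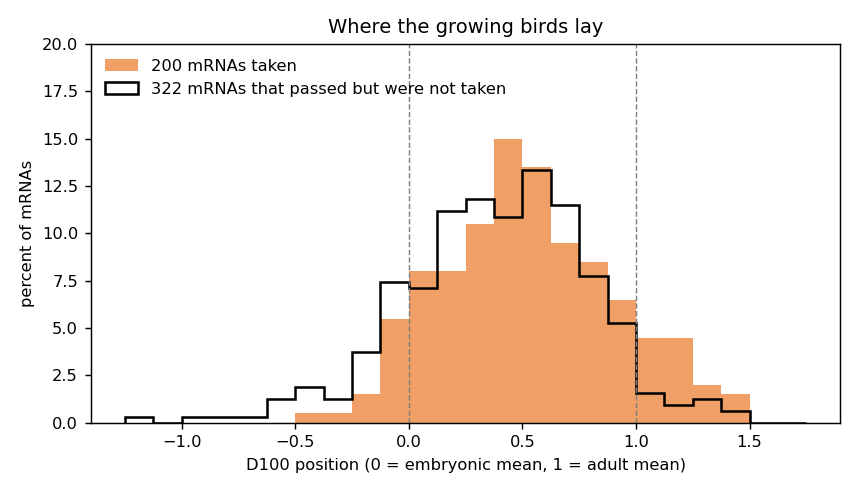
D100 position on the x axis (0 = embryonic mean, 1 = adult mean) and percent of mRNAs on the y axis. Filled bars are the 200 mRNAs and the black outline is the 322 mRNAs that passed the rule with a smaller difference. The medians are 0.51 and 0.41, and both groups spread over the whole way between the embryonic and the adult mean.

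By single libraries, all 3 birds of D100 stood above all 8 embryos in 72 of the 200 mRNAs (36%), beside 3.7% of the 11001 mRNAs and 24.9% of the 700 with all hens above all embryos. All 3 stood below all 7 hens in 82 (41%), beside 9.51% of the 11001 and 40.4% of the 700. The first share was above that of the 700 and the second close to it. The 200 were taken for the largest differences, which left D100 more room to stand above the embryos. Among the 322 with smaller differences the first share was 17.7% and the second 38.2%. Nothing is therefore read from the higher first share. Taking both together, 61 mRNAs were above the embryos and reached into the range of the hens, 71 were below the hens and reached into the range of the embryos, 11 lay between both with no overlap, and 57 overlapped both. These classes were set from the D100 values themselves, so the steps into and out of D100 and the D100 position within a class follow from its definition and are given only as levels.

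The 61 mRNAs that had left the embryonic range and reached the adult one at D100 had medians of 1.97, 2.00 and 2.07 at E12, E16 and E20, 4.08 at D100, and 4.37, 4.02 and 3.98 at Y1, Y3 and Y5. The median position was 0.93. All 15 of the mRNAs whose highest stage was D100 were among them. Y5 minus Y1 had a median of -0.31 and was below 0 in 42 of the 61. A low hen helps bring an mRNA into this class, so both values are tied to its definition and nothing is read from them.

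The 71 mRNAs that were still below all hens at D100 had medians of 2.69, 2.79 and 3.64 at E12, E16 and E20, 3.49 at D100, and 4.76, 5.01 and 4.74 at Y1, Y3 and Y5. The median position was 0.22. Both birds of E20 stood above all younger embryos in 32 of these 71, in 18 of the 61 above, in 6 of the 11 between both and in 18 of the 57 that overlapped both. A high E20 raises the embryonic range that D100 is held against, so these counts are tied to the definition of the classes. Y5 was below Y1 in 37 of the 71, a count also tied to the definition, since a low hen keeps an mRNA out of this class. Across the 200 mRNAs the steps E20 minus E16 and D100 minus E20 had a Pearson r of -0.38, and both steps contain the same E20 birds.

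ENSGALG00000016964 on chromosome 1 had the highest D100 position, 1.46. Its values were 1.20, 0.99 and 0.82 at E12, 1.05, 1.28 and 1.70 at E16, 0.94 and 1.07 at E20, and 3.33, 3.89 and 2.89 at D100. The hens had 3.27, 2.90 and 2.93 at Y1, 1.89 and 3.20 at Y3, and 2.12 and 2.37 at Y5. All birds of D100 were above all embryos, and the stage means were lower at each adult stage than at the one before. The mean was 2.67 ± 0.54 in hens and 1.13 ± 0.27 in embryos (SD, n = 7 and 8).

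ENSGALG00000002015 on chromosome 6 had the second lowest D100 position, -0.35, and the highest adult level of the 200 mRNAs, with 744 FPKM in hens and 178 FPKM in embryos. Its values were 7.66, 8.0 and 7.01 at E12, 6.46, 6.42 and 6.92 at E16, 8.85 and 6.46 at E20, and 4.87, 7.96 and 6.40 at D100. The hens had 9.28, 9.44 and 9.28 at Y1, 9.60 and 9.54 at Y3, and 9.67 and 9.88 at Y5. Of the birds of D100, replicate 1 lay well below all embryos and replicate 2 in the upper part of their range. Replicate 3 lay barely below the lowest embryo, at 6.40 against 6.42. As its library had a low median of all mRNAs (3.16), nothing is read from that place. The 7 hens lay close together at 9.53 ± 0.22 (SD, n = 7). The embryos averaged 7.22 ± 0.88 (SD, n = 8), with E20 replicate 1 well above the other 7.

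**Figure D5:**
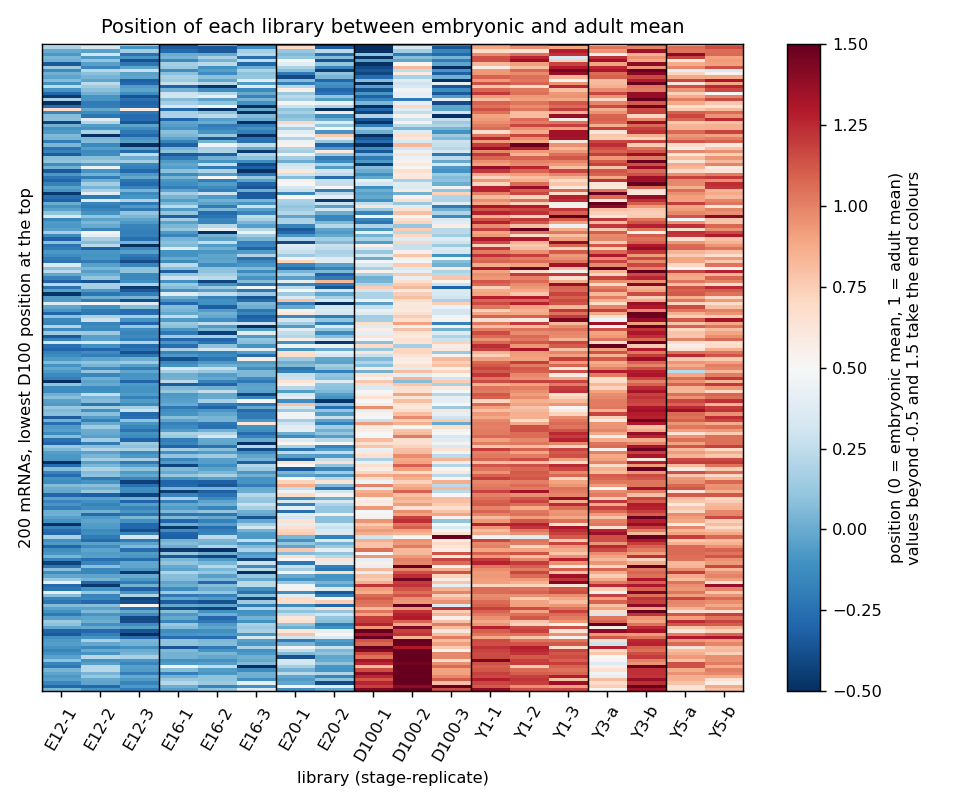
Position of each of the 200 mRNAs in each of 18 libraries between the embryonic mean (0, blue) and the adult mean (1, red), with values beyond -0.5 and 1.5 drawn in the end colours. Rows are mRNAs with the lowest D100 position at the top, columns are libraries in order of age. The 3 columns of D100 pass from blue at the top to red at the bottom, and D100 replicate 2 and Y3 replicate b are redder than the other libraries of their stage, as their counts in the text show.

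As deposited, the values of the birds of D100 differed from each other more than those of other stages. The median SD between birds of a stage over the 200 mRNAs was 0.52 at D100. It was 0.20 at E12, 0.25 at E16 and 0.28 at E20, and in hens 0.21 at Y1, 0.33 at Y3 and 0.11 at Y5. Over all mRNAs it was 0.38 at D100 and 0.13 to 0.26 at the other stages. D100 replicate 3 lay at a median of -0.22 from its stage mean over all mRNAs, and at -0.01 with median-ratio scaling. The SDs were not computed after scaling, so how much of them comes from the level of a whole library was not measured. D100 replicate 2 had the highest value of its stage in 140 of the 200 mRNAs (70%), beside 42.6% of all mRNAs. It stood above the mean of the other 2 birds in 176 (88%), by a median of 0.61, against 71.4% and 0.22 over all mRNAs. With median-ratio scaling, which had a factor of 0.76 for D100 replicate 3, this was 75% and 0.40, against 48.3% and -0.02.

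The D100 counts moved with these birds, and so did the shares of the 11001 mRNAs. The single libraries of D100 stood above all embryos in 104, 160 and 106 of the 200 mRNAs and below all hens in 144, 97 and 146. The count above all embryos was 72 with all 3 birds (3.7% of the 11001), 100 without replicate 1 (5.74%), 74 without replicate 2 (4.16%) and 100 without replicate 3 (10.4%). The count below all hens was 82 with all 3 birds (9.51%), 88 without replicate 1 (13%), 118 without replicate 2 (17.5%) and 89 without replicate 3 (12.2%). With median-ratio scaling 91 stood above (6.76%) and 74 below (6.66%). With FPKM rescaled to the sum without mitochondrial mRNAs 95 stood above (6.64%) and 74 below (7.02%). The median position was 0.42 without replicate 2 and 0.58 with median-ratio scaling.

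Among the hens, 1 of the 200 mRNAs passed the test between adjacent stages. The rule barred most large changes here beforehand, since the highest stage mean could not stand 0.5 or more above the second highest and no hen could lie as low as an embryo. The backgrounds of all mRNAs, which had no such limits, are therefore given beside the counts and nothing is read from the comparison. For Y3 vs Y1, 0 of the 200 were called in either direction, beside a background of 0.0206% higher and 0.0275% lower, and at an unadjusted p of at most 0.05 with no limit on the fold limma gave 12 higher and 5 lower, beside 4.92% and 4.43% of all mRNAs. For Y5 vs Y3, 0 rose and 1 fell, beside a background of 0.522% higher and 0.206% lower, and the unadjusted counts were 4 higher and 25 lower of the 200, beside 6.95% and 7.43% of all mRNAs. The median Y5 minus Y1 difference, which was not tested, was -0.20 over the 200 mRNAs, and 124 of them (62%) were lower at Y5, against 52.0% of all mRNAs. In total 28 of the 200 mRNAs were called in 1 of the 4 comparisons tested, 0 in more than 1 and 172 in none.

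The mRNA that fell was ENSGALG00000036195 on chromosome 9. Its values were 3.76, 4.34 and 4.42 at E12, 3.78, 3.92 and 4.30 at E16, 4.09 and 3.26 at E20, and 3.42, 4.38 and 3.85 at D100. The hens had 5.50, 5.75 and 6.36 at Y1, 6.13 and 6.42 at Y3, and 4.64 and 4.56 at Y5. The level was that of the embryos up to D100, higher at Y1 and Y3, and at Y5 only just above the highest embryo. Y5 vs Y3 gave a difference of -1.67 (SE 0.36, adjusted p = 0.0452 in limma). The call was lost with a Bonferroni adjustment, with a pseudocount of 0.1, and with the fit made on Y3 and Y5 alone. It was kept in 7 of 18 fits that each left out a library, and lost without any 1 of E12, without E16 replicate 1 or 2, Y1 replicate 1 or 2, or either hen of Y3 or of Y5.

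The 2 hens of Y3 differed from each other across many of the 200 mRNAs. Replicate b was above replicate a in 146 (73%), beside 53.2% of all mRNAs, with a median of 0.36 and 0.04, and by at least 1 in 34. At median-ratio scaling the share was 70%, against 49.7%. The birds that stood high for these mRNAs, E20 replicate 1, D100 replicate 2 and Y3 replicate b, were each the highest of their stage in 76 of the 200 mRNAs (38%), against 11.4% of all mRNAs. These birds were singled out after their values were seen. Each was already high in most of the 200 mRNAs on its own (70.5%, 70% and 73%). The joint share alone therefore does not show that the same mRNAs were high together. The size of the difference in single mRNAs was only weakly related between the birds. Pearson r over the 200 mRNAs was 0.19 between E20 and D100, -0.05 between E20 and Y3 and 0.26 between D100 and Y3. Over all mRNAs r was 0.17, 0.10 and -0.05 in the same order.

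The 200 mRNAs lay on all 19 chromosomes that the rule allowed. There were 37 on chromosome 1, 31 on chromosome 2, 15 on chromosome 5 and 14 on chromosome 3, and 1 to 11 on each of the others. As a share of the mRNAs listed on a chromosome, they were 0.341% on chromosome 19 and 3.14% on chromosome 18, with 1.82% over all of them, and these ends rest on 1 and 9 mRNAs.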

How the data were processed

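RNA of the cerebrum was sequenced in 21 libraries, of which 18 with a stage in their column name were analysed, and 3 value columns were not used. By the authors' methods, reads of low quality and of ribosomal RNA were removed, the rest were mapped with HISAT2 to Gallus_gallus-5.0, transcripts were assembled with StringTie 1.3.3, and FPKM was computed with Cufflinks 2.2.1 and StringTie. The authors filtered mRNAs at FPKM above 0.1 and deposited log2 values of FPKM plus 1. The authors compared adjacent stages with DESeq2 on counts derived from FPKM. Read counts and the read totals that the study lists per library were not used here, and the change of a weakly expressed mRNA is understated on this scale.

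Tests used limma 3.58.1 in R 4.3.3, as 1 model of 7 stage means for all 14558 mRNAs, with a pseudocount of 1, a variance trend on the mean level and no filter on low values. The fit dropped no sample. Other steps used Python 3.11.15, numpy 2.4.6, pandas 2.3.3 and matplotlib 3.10.9. FPKM was recovered as the power of 2 of the value, minus 1. The procedure was tested on simulated data with normal noise and with added changes larger than the limit for a call. Those data do not cover changes near that limit, weakly expressed mRNAs or a spread that differs between stages.

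The 200 mRNAs, the lists and the tests were chosen with earlier results of these data known. Lists of synaptic, channel, immune and other genes and of cell type markers could not be applied, since 0 identifiers matched a symbol. By the naming rule, mRNAs without a symbol were named from the 20 largest differences, the 5 largest calls of each comparison and direction, and both sides of the last rank. Only a few of these are named. ENSGALG00000016964, ENSGALG00000002015, ENSGALG00000042001 and ENSGALG00000017926 were not covered by it and were picked with their values in view, as was the choice among the others.

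The alternatives were Bonferroni-adjusted and unadjusted p, a pseudocount of 0.1, median-ratio scaling, only mRNAs with a mean FPKM of at least 1, only the libraries of both stages compared, the replicate number as a block, and leaving out each library in turn. Those for the D100 counts and for the steps between stages were chosen after seeing the data.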

Additional observations from a re-analysis of the deposited data

How the results depend on the processing

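The rule set the direction of the adult minus embryonic difference of these mRNAs beforehand, so that it held in every alternative is no test of it. No alternative turned the direction of the D100 position. The median difference of the 200 mRNAs was 1.67, and 1.98 with a pseudocount of 0.1, and lay between 1.61 and 1.71 when each library was left out in turn. The median D100 position lay between 0.42 and 0.56 in the same runs. Chosen anew, the 200 mRNAs held 160 of those described with a pseudocount of 0.1, 185 with median-ratio scaling, and 156 (without Y3 replicate a) to 196 with a library left out. Of the 200, 199 had a mean FPKM of at least 1. For E16 vs E12, 0 of the 200 were called, but 1 with an unadjusted p, 1 with a pseudocount of 0.1 and 1 without E16 replicate 3, so the range over libraries left out was 0 to 1. For E20 vs E16 the 27 calls became 2 with Bonferroni adjustment, 4 with the 2 compared stages only, and 6 (without E20 replicate 1) to 28 with a library left out. For Y3 vs Y1 the 0 calls became 4 with an unadjusted p and 0 to 2 with a library left out, the 2 without Y3 replicate b. For Y5 vs Y3 the 1 call became 0 with Bonferroni adjustment, a pseudocount of 0.1 or the 2 compared stages only, 6 with an unadjusted p, and 0 to 3 with a library left out. The highest count came without Y3 replicate b, where the balance of directions turned. That fit left 1 hen at Y3, so nothing is read from this. The cause of these changes was not tested. With the replicate number as a block, in a fit without the libraries of Y3 and Y5, E20 vs E16 gave 17 calls. The background there was 2.01% of all mRNAs called higher. In the same fit E16 vs E12 gave 0, beside 0.63% called higher. No label says that the numbers pair the birds. Over 26 pairs of same-numbered libraries the correlation of their deviations from the stage mean lay between -0.34 and 0.34, and above 0.1 in 6. Such correlations cannot exclude something shared by number. No paired analysis was possible for Y3 vs Y1 and Y5 vs Y3 because the columns of Y3 and Y5 carry no usable number. Without read counts, no counting error was computed for values near 0 FPKM.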
